A study of Homo sapiens with 6 samples.

Results

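The 42 genes described here encode nucleolar proteins of ribosome biogenesis. They were taken by gene symbol from a table of 59653 genes, in which all 42 were found and all 42 were tested. By step, 7 belong to RNA polymerase I transcription, 8 to small nucleolar ribonucleoproteins (snoRNPs), 11 to the processome and 40S maturation, and 16 to 60S assembly. Ribosomes are built in the nucleolus, where RNA polymerase I copies the ribosomal DNA into a long precursor RNA. The snoRNPs modify the precursor, the small subunit processome folds and cleaves it toward the 40S subunit, and a further set of factors assembles the 60S subunit. The pathway is known for its high activity in growing tumour cells.

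The RNA came from SK-OV3, an established line of human ovarian carcinoma, with a wild-type genotype given for both groups. The authors describe the line as lacking p53 expression. The 3 siPVT1 libraries came from cells given a pool of 4 siRNAs against the lncRNA PVT1, and the 3 siControl libraries from cells given a non-targeting pool, each at 50 nM for 48 h. A single cell line and a single pool against PVT1 were used, and no source says whether the 3 libraries of a group came from separate cultures, so the p-values measure the spread between these libraries, which may be technical. The comparison addresses which transcripts differ between cells given the PVT1 pool and cells given the control pool. Effects of the PVT1 pool other than the reduction of PVT1 cannot be told apart in it.

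Total counts ranged from 28383171 to 35059576 per library. Library values below are normalized counts in the order of replicates 1, 2 and 3. For PVT1 they were 3298, 4090 and 3377 with the control pool and 2350, 2111 and 2062 with the PVT1 pool (log2 fold change −0.72, standard error 0.097, adjusted p = 0.000343). All 6 epithelial markers of the line were detected, with sums of 19939 to 22165 in siControl and 27944 to 31078 in siPVT1. KRT8, KRT18, KRT19 and PAX8 were higher in every siPVT1 library, ERBB2 was lower (1190 to 1325 in siControl, 896 to 962 in siPVT1), and EPCAM overlapped, between 41.3 and 127. The leukocyte marker PTPRC reached at most 2.02, and CD3E was at 0 in every library. Both endothelial markers, PECAM1 and CDH5, were higher in siPVT1, with sums of 2030 to 2044 in siControl and 8541 to 10796 in siPVT1. Of the fibroblast markers DCN was at most 1.11 normalized counts, LUM was 9.24 to 24.2 in siControl and 1.88 to 12.0 in siPVT1, and COL1A1 was 106 to 123 and 499 to 513, so that the sum of 126 to 132 in siControl and 501 to 522 in siPVT1 followed COL1A1. The part of these marker changes in the results below was not tested. In bulk RNA, fewer expressing cells and less RNA per cell cannot be told apart, and counts relative to the library do not show the RNA content of a cell.

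Most of the 42 transcripts were lower in siPVT1. The 42 genes were chosen with earlier results of these data known, so the counts below describe them and are no test of the pathway. With edgeR's quasi-likelihood test and Benjamini-Hochberg adjustment over 19008 genes, 39 of the 42 genes were lower at an adjusted p under 0.05, where the share of all genes tested was 28.4%. With the added fold threshold of the study, a log2 fold change of at least 1 in size, 26 of the 42 were lower, against 9.65% of all genes. No gene of the 42 was higher by either rule in edgeR or DESeq2, against 11.8% of all genes by both thresholds and 29.5% by the adjusted p alone, and 1 (NOP10) was higher at an unadjusted p under 0.05 in either tool. Without siPVT1 replicate 1, FBL and PPAN were higher at adjusted p-values of 0.0338 and 0.0419. The median log2 fold change of the 42 was −1.12, from −2.19 for RRP12 to 0.21 for NOP10, and the median of all genes tested was 0.001. All siPVT1 libraries lay below all siControl libraries for 37 of the 42 genes, above them for 2 and overlapped for 3, and among all genes tested 32.3% lay below and 33.2% above. For a single gene the two-sided exact permutation test of 3 libraries against 3 cannot give a p below 0.1, the value of each gene without overlap.

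**Figure D1:**
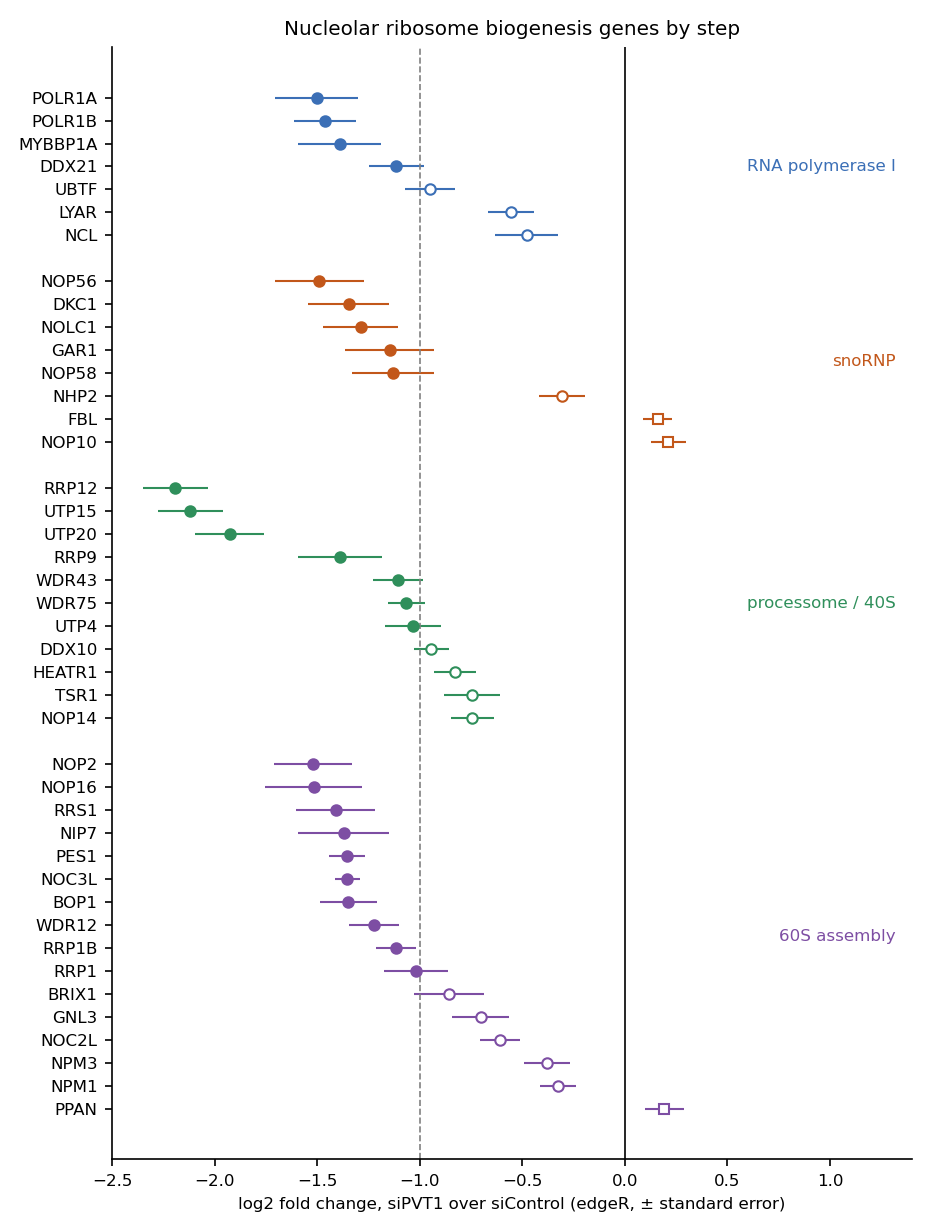
Log2 fold change of each of the 42 genes, siPVT1 over siControl, with its standard error from edgeR (x axis), grouped and coloured by step and ordered within the step. Filled circles passed both thresholds, open circles the adjusted p alone and squares neither; the dashed line marks −1, and the 3 squares are FBL, NOP10 and PPAN.

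Since many of these genes were lower together, their promoters were read from RefSeq (GRCh38.p14). Windows from 250 bases before to 50 after an annotated start were found for 36 of the 42, and the promoters of NOP58, NOLC1, RRP12, BOP1, RRS1 and RRP1B were not analysed here. The letters CACGTG, an E-box that reads the same on both strands and that MYC is known to bind, were found in 15 of the 36 genes (41.7%), in 12.1% of the 11862 tested genes with a window and in 7.26% of all 35116 windows. The letters CCGGAAG on either strand, the core that ETS factors are known to bind, were found in 14 of the 36 genes (38.9%), in 20.7% of tested genes and in 10.3% of all windows. A gene with several windows was counted where any of them held the letters. The 5 stretches of 120 bases that follow, each from 90 bases before to 30 after the start, were chosen after the values were seen, to show promoters with and without the letters. RRP9, UTP20 and UTP4 hold CACGTG and were lower, FBL holds it and was not called, and UTP15 holds neither set of letters and was among the genes that fell most. Of the genes not printed, NOP10 also holds CACGTG and was not called, and PPAN, not called either, does not hold it. Capitals mark CACGTG and CCGGAAG or its complement.
RRP9 (chr3:51941875-51941994, minus strand): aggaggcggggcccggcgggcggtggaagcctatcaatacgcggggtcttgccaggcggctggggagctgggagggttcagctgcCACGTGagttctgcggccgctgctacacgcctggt
UTP20 (chr12:101280015-101280134, plus strand): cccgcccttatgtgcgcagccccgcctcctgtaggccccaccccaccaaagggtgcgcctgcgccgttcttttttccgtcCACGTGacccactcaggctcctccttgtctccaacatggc
UTP4 (chr16:69132559-69132678, plus strand): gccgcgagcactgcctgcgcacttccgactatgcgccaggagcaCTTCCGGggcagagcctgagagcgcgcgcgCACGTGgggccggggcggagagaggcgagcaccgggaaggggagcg
FBL (chr19:39846350-39846469, minus strand): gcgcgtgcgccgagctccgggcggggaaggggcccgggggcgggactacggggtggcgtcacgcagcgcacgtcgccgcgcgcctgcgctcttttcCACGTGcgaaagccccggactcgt
UTP15 (chr5:73565653-73565772, plus strand): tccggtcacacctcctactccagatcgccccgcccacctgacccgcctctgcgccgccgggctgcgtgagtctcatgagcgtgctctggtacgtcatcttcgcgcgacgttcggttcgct

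The first base of CACGTG lay 5 bases before the start in RRP9, 10 before it in UTP20 and 16 before it in UTP4, and 6 bases after it in FBL. The median log2 fold change was −1.11 in the 15 genes with CACGTG (from −1.93 to 0.21) and −0.95 in the 21 without it (from −2.12 to 0.19). Among 117 of the further pathway genes described below, the median was −0.92 in the 32 with CACGTG (27.4%) and −0.62 in the 85 without it. Among all tested genes with a window, the median was −0.08 with CACGTG and 0.0 without it. For CCGGAAG, the median was −1.07 in the 14 genes with it and −1.04 in the 22 without it. Among the 117 further genes these medians were −0.7 and −0.64, and among all tested genes with a window −0.1 and 0.02. MYC had 7736, 7352 and 7554 in siControl and 3761, 3634 and 3825 in siPVT1. MYC was lower in siPVT1 (log2 fold change −1.01, standard error 0.055, adjusted p = 3.69e-06). The part of MYC in the change of these genes was not tested.

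RNA polymerase I transcription was represented by 7 genes, all lower at an adjusted p under 0.05 and 4 of them past the fold threshold, with a median log2 fold change of −1.11. POLR1A, the largest subunit of RNA polymerase I (chromosome 2, 86020216 to 86106155, minus strand, GENCODE v44 on GRCh38), had normalized counts of 5080, 5033 and 5077 in siControl and 1314, 1569 and 2467 in siPVT1. The siControl libraries lay close together, and each siPVT1 library was well below them (log2 fold change −1.5, standard error 0.201, adjusted p = 0.000345). POLR1B, the second largest subunit (chromosome 2, 112541915 to 112579818), had 2861, 2779 and 2861 in siControl and 843, 922 and 1312 in siPVT1 (log2 fold change −1.46, standard error 0.15, adjusted p = 7.9e-05). The groups did not overlap for either subunit. MYBBP1A, a nucleolar protein that acts in ribosomal gene transcription and processing (chromosome 17, 4538897 to 4555386), had 3692, 3410 and 3556 against 962, 1246 and 1848 (log2 fold change −1.39, standard error 0.202, adjusted p = 0.000536).

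DDX21, an RNA helicase of the nucleolus, was at a log2 fold change of −1.11 (standard error 0.135), from 20311 ± 452 to 9378 ± 2010 normalized counts (SD, n = 3 each). UBTF, the factor that keeps ribosomal DNA open for RNA polymerase I, was lower by the adjusted p (log2 fold change −0.95, standard error 0.121, adjusted p = 0.000261) without reaching the fold threshold, and so was LYAR, a nucleolar growth regulator (−0.56, standard error 0.112, adjusted p = 0.00308). NCL, which encodes the abundant histone and RNA binding protein nucleolin, had the smallest change of this step. Its normalized counts were 38592, 32777 and 37911 in siControl and 21086, 24388 and 32901 in siPVT1, so that siPVT1 replicate 3 lay just above siControl replicate 2 and the groups overlapped. NCL was lower by the adjusted p alone (log2 fold change −0.48, standard error 0.152, adjusted p = 0.0258). Without siControl replicate 1, siControl replicate 3 or siPVT1 replicate 2, its adjusted p was 0.0799, 0.0734 and 0.0814.

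**Figure D2:**
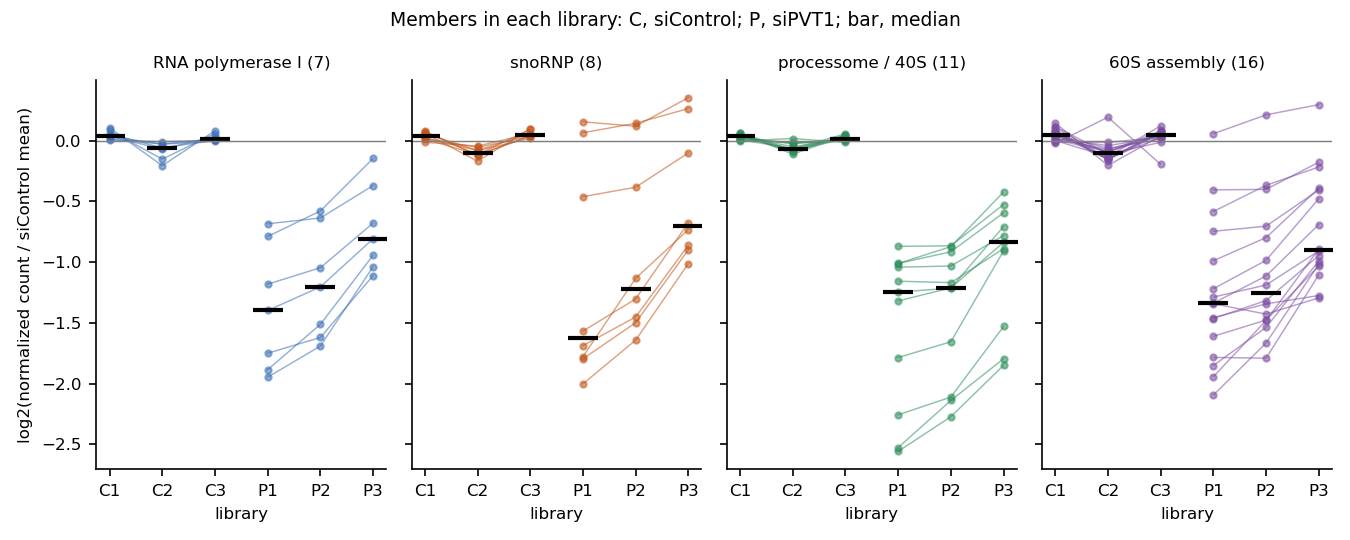
Log2 ratio of each gene's normalized count to its siControl mean (y axis) in siControl (C) and siPVT1 (P) replicates 1, 2 and 3 (x axis), in a panel per step. Thin lines join the values of 1 gene within a group and black bars are medians; the siPVT1 medians were −1.40, −1.20 and −0.81 for RNA polymerase I and −1.34, −1.25 and −0.90 for 60S assembly.

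Of the 8 snoRNP genes, 6 were lower by the adjusted p and FBL and NOP10 were not called. Box C/D snoRNPs carry the methyltransferase fibrillarin (FBL) with the scaffold proteins NOP56 and NOP58, and guide methylation of the precursor RNA. NOP56 (chromosome 20, 2652593 to 2658393, plus strand) had 7745, 6784 and 7528 normalized counts in siControl and 1836, 2356 and 3646 in siPVT1 (log2 fold change −1.49, standard error 0.217, adjusted p = 0.000545). NOP58 went from 5924 ± 421 to 2702 ± 894 (SD, n = 3 each), with a log2 fold change of −1.13 (standard error 0.201) and an adjusted p of 0.00157. For both, every siPVT1 value was below every siControl value. FBL (chromosome 19, 39834458 to 39846379, minus strand) had 2804, 2616 and 2876 in siControl and 2891, 3053 and 3319 in siPVT1. Its siPVT1 libraries were all above its siControl libraries by a narrow margin, and the change was not called (log2 fold change 0.16, standard error 0.072, adjusted p = 0.0897).

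Box H/ACA snoRNPs carry the pseudouridine synthase dyskerin (DKC1) with NHP2, NOP10 and GAR1. DKC1 (chromosome X, 154762742 to 154777689, plus strand) had 5066, 4588 and 4918 in siControl and 1399, 1719 and 2605 in siPVT1 (log2 fold change −1.35, standard error 0.198, adjusted p = 0.000568). GAR1, with 795, 778 and 835 against 234, 366 and 483, had a log2 fold change of −1.15 (standard error 0.216) and an adjusted p of 0.00214. The groups did not overlap for either gene. NHP2 had 1840, 1568 and 1884 in siControl and 1281, 1352 and 1644 in siPVT1, groups that overlapped, with a log2 fold change of −0.31 (standard error 0.111) and an adjusted p of 0.0435. The call of NHP2 was lost without siControl replicate 1 or 3 or without siPVT1 replicate 1 or 2, at adjusted p-values from 0.0758 to 0.133. NOP10, a small core protein with the highest log2 fold change of the 42 genes, had 2144, 1960 and 2264 in siControl and 2362, 2304 and 2711 in siPVT1 (0.21, standard error 0.085, adjusted p = 0.0618). Each siPVT1 library of NOP10 was above each siControl library, and the change was not called. NOLC1, the chaperone that brings snoRNPs into the nucleolus, had 9992, 9484 and 10106 against 3062, 3606 and 5430 (log2 fold change −1.29, standard error 0.185, adjusted p = 0.000502).

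The unequal change of partner genes was also seen as ratios of counts per kb of canonical transcript within a library, on which the scaling between libraries has no bearing. The ratio of NOP56 to FBL was 1.62, 1.53 and 1.54 in siControl and 0.374, 0.454 and 0.646 in siPVT1, a mean 3.18-fold lower in siPVT1. The ratio of DKC1 to NOP10 was 0.485, 0.481 and 0.446 against 0.122, 0.153 and 0.197, a mean 2.99-fold lower, and that of DKC1 to NHP2 was a mean 2.1-fold lower. These 3 ratios did not overlap between the groups (two-sided exact permutation test, p = 0.1 for each, the smallest possible). The ratio of NOP58 to NOP56 was higher in every siPVT1 library, with 0.773 ± 0.00384 in siControl and 0.999 ± 0.0391 in siPVT1 (SD, n = 3 each, p = 0.1 in the same exact test). The ratio of GAR1 to DKC1 overlapped between the groups, with 0.402 ± 0.0179 in siControl and 0.459 ± 0.0561 in siPVT1 (SD, n = 3 each, p = 0.3 in the same exact test). The 10 ratios computed were chosen after the levels had been seen, and at 3 libraries against 3 no adjusted p under 0.05 was possible.

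**Figure D3:**
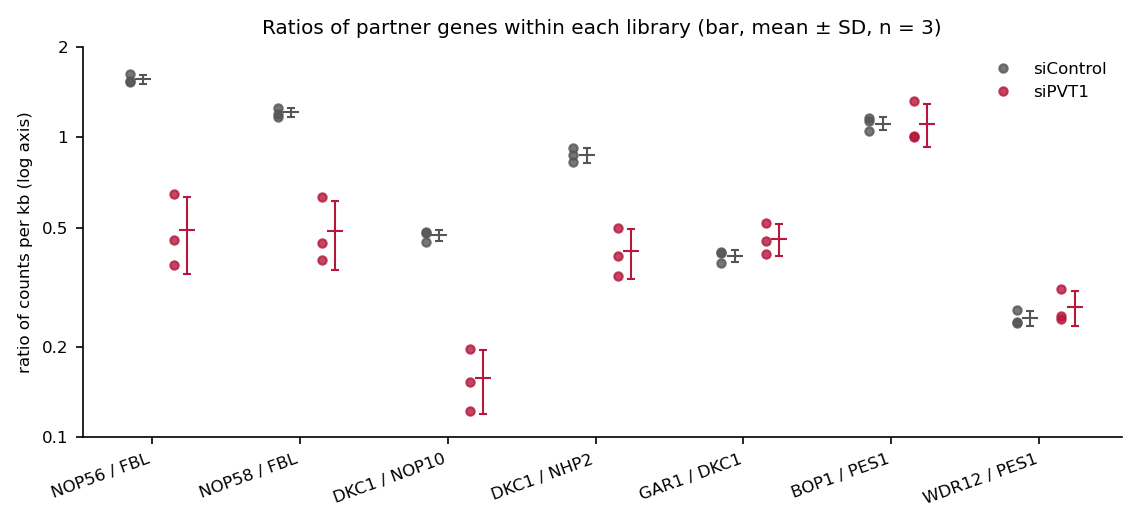
Ratio of counts per kb of canonical transcript between 2 partner genes (y axis, log scale) for 7 of the 10 ratios in each siControl (grey) and siPVT1 (red) library, with mean and SD (n = 3) beside the points. NOP56 to FBL, NOP58 to FBL, DKC1 to NOP10 and DKC1 to NHP2 were lower in every siPVT1 library, and GAR1 to DKC1, BOP1 to PES1 and WDR12 to PES1 overlapped.

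The processome and 40S step held the 3 lowest values of the 42 genes, though its median on the log2 scale, −1.07, was the smallest in size of the 4 steps. All 11 genes were lower at an adjusted p under 0.05, 7 of them past the fold threshold, and in all 11 every siPVT1 value was below every siControl value. RRP12, which acts in the maturation and export of subunit precursors (chromosome 10, 97356358 to 97426076, minus strand), had 3196, 3035 and 3302 in siControl and 540, 658 and 882 in siPVT1. The mean was 4.57-fold lower in siPVT1 (log2 fold change −2.19, standard error 0.158, adjusted p = 1.36e-05). UTP15, a subunit of the t-UTP complex that joins transcription to processing (chromosome 5, 73565443 to 73583380, plus strand), had 2030, 1987 and 2030 against 350, 458 and 581 (log2 fold change −2.12, standard error 0.157, adjusted p = 1.59e-05). UTP20, a large scaffold protein of the pathway (chromosome 12, 101280105 to 101386618, plus strand), had 5461, 5535 and 5415 against 1145, 1267 and 1895 (log2 fold change −1.93, standard error 0.17, adjusted p = 3.69e-05). For these 3 genes the highest siPVT1 library stayed far below the lowest siControl library.

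The other t-UTP genes had smaller log2 fold changes than UTP15, a difference that was not tested. WDR43, WDR75 and UTP4 had log2 fold changes of −1.11, −1.07 and −1.03, with standard errors of 0.121, 0.088 and 0.137, and HEATR1 was at −0.83 (standard error 0.103), below the fold threshold in size. RRP9, a protein of the U3 snoRNP that nucleates the processome, was at −1.39 (standard error 0.206). The helicase DDX10 was at −0.94 (standard error 0.085) and TSR1, a factor of late 40S maturation, at −0.75 (standard error 0.138). NOP14 had the smallest change of the step, with 2920, 2583 and 2872 in siControl and 1527, 1532 and 1939 in siPVT1 (log2 fold change −0.74, standard error 0.105, adjusted p = 0.000446).

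In 60S assembly, 15 of the 16 genes were lower at an adjusted p under 0.05 and 10 past the fold threshold, with a median log2 fold change of −1.17. NOP2, a methyltransferase of the large subunit RNA (chromosome 12, 6556863 to 6568691, minus strand), had 3080, 3577 and 2733 in siControl and 909, 905 and 1455 in siPVT1 (log2 fold change −1.52, standard error 0.191, adjusted p = 0.000241). NOP16, a small assembly factor (chromosome 5, 176383946 to 176388927, minus strand), had 1694, 1330 and 1573 against 359, 483 and 757 and the widest standard error of the 42 genes (log2 fold change −1.52, standard error 0.238, adjusted p = 0.00081). RRS1, which brings 5S RNA into the precursor (chromosome 8, 66429014 to 66430733, a single exon), had 2398, 2067 and 2437 against 638, 793 and 1159 (log2 fold change −1.41, standard error 0.194, adjusted p = 0.000395). None of these 3 genes had groups that overlapped.

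The PeBoW complex of PES1, BOP1 and WDR12, which is required for processing of the large subunit RNA, was lower in each of its members. PES1 had 3084, 2604 and 3029 in siControl and 1059, 1145 and 1201 in siPVT1. BOP1 had 3481, 3251 and 3653 against 1134, 1244 and 1693, and WDR12 had 2660, 2460 and 2594 against 932, 1033 and 1335. Their log2 fold changes were −1.36, −1.35 and −1.22, with standard errors of 0.086, 0.14 and 0.124. The ratio of BOP1 to PES1 per kb was 1.11 ± 0.0565 in siControl and 1.11 ± 0.179 in siPVT1, and that of WDR12 to PES1 was 0.249 ± 0.0138 and 0.271 ± 0.0359 (SD, n = 3 each, p = 1.0 and p = 0.5 in the two-sided exact permutation test), so that no difference in these ratios was detectable with 3 libraries.

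NOC3L, a partner of early 60S particles, had the smallest p-value of the 42 genes, with 2666, 2661 and 2743 against 1061, 1000 and 1097 (log2 fold change −1.35, standard error 0.062, adjusted p = 1.9e-06). Its relative NOC2L was at −0.61 (standard error 0.097). NIP7 was at −1.37 (standard error 0.221), and the paralogs RRP1B and RRP1 were at −1.12 and −1.02 (standard errors 0.097 and 0.155). BRIX1 and the nucleolar GTPase nucleostemin (GNL3) were lower by the adjusted p alone, at −0.86 and −0.70 (standard errors 0.172 and 0.139).

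The histone chaperones NPM1 and NPM3 had small changes. NPM1, which encodes nucleophosmin (chromosome 5, 171387116 to 171411810, plus strand), had 48100, 41262 and 47589 in siControl and 34464, 34568 and 40351 in siPVT1, groups that came close without overlap (log2 fold change −0.32, standard error 0.088, adjusted p = 0.0131). NPM1 has many processed pseudogenes, whose rows held 5.37% of the siControl counts of NPM1 and pseudogenes together, and for NPM1 and its pseudogenes together the log2 ratio of the group means was also −0.32. NPM3 had a log2 fold change of −0.38 (standard error 0.113) and an adjusted p of 0.0196. The calls of both were lost without siControl replicate 1, at adjusted p-values of 0.051 and 0.0763. PPAN, a factor of early 60S assembly (chromosome 19, 10106362 to 10112012, plus strand), had 755, 647 and 756 in siControl and 748, 833 and 883 in siPVT1, and its groups overlapped. It was not called (log2 fold change 0.19, standard error 0.095, adjusted p = 0.118), and the read-through gene PPAN-P2RY11 held 0.345% of the siControl counts of both.

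The levels of the 42 genes span a wide range. Per kb of canonical transcript, the siControl mean was 34584 normalized counts for NPM1, 9283 for NCL, 4355 for DDX21 and 4186 for NOP10, and 312 for PPAN at the low end. In siPVT1 the order at the top was NPM1 with 27622, NCL with 6658 and NOP10 with 4850, and DDX21 was at 2011. UTP15 was the lowest in siPVT1, at 90.8 normalized counts per kb.

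**Figure D4:**
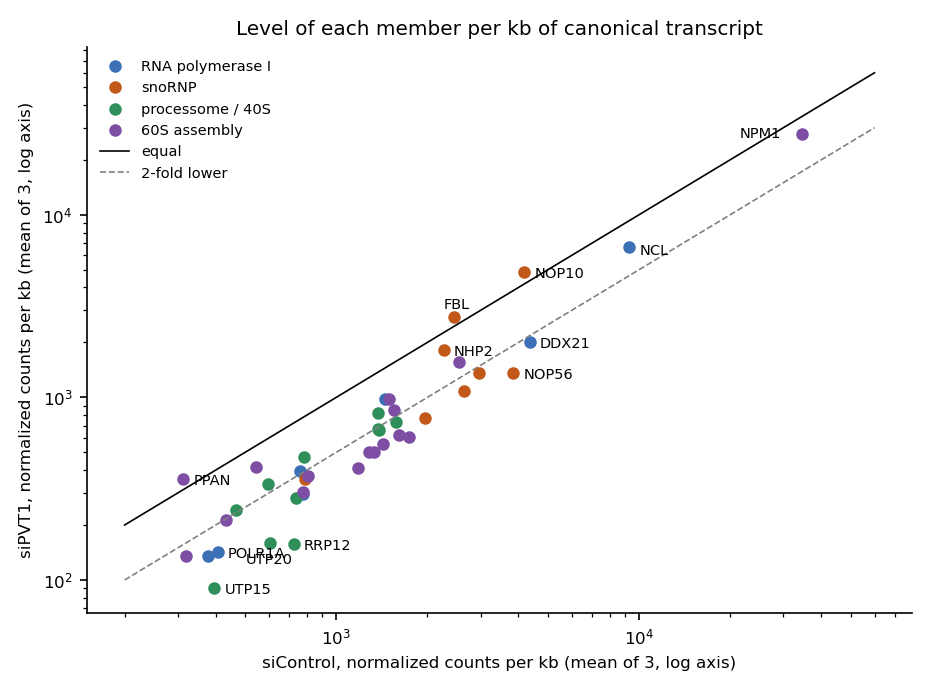
Mean normalized counts per kb of canonical transcript in siControl (x axis) and siPVT1 (y axis), both on log scales, for each of the 42 genes, coloured by step. The solid line marks equal levels and the dashed line a level 2-fold lower; FBL, NOP10 and PPAN lie just above the solid line, and UTP15 (396 against 90.8) lies far below the dashed line.

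The siPVT1 libraries were not equal to each other in these genes. In siPVT1 replicate 3 the normalized count was the highest of the 3 siPVT1 libraries for 42 of the 42 genes, called or not, and in siPVT1 replicate 1 it was the lowest for 38. Replicate 3 was the highest siPVT1 library for 41.3% of all genes tested and for 50.5% of the 1834 genes called lower by both thresholds. Among the 142 further pathway genes described below, replicate 3 was the highest for 131 and replicate 1 the lowest for 105. Of the genes called higher by both thresholds, 66.9% had replicate 3 as the lowest siPVT1 library. The median log2 ratio of the 42 genes to their siControl mean was −1.34, −1.20 and −0.82 in siPVT1 replicates 1, 2 and 3. The count of 42 was the same with scaling by the total count and with DESeq2's size factors. The median coefficient of variation of the 42 genes was 5.01% in siControl and 21.9% in siPVT1, against 3.66% and 7.97% in the 8714 tested genes within their range of mean level. PVT1 itself was lowest in siPVT1 replicate 3, and MYC differed little between the siPVT1 libraries. Replicate 3 had the largest total count and 7% of its counts in mitochondrially encoded genes, against 5.75% and 6.49% in siPVT1 replicates 1 and 2 and 5.26% to 5.81% in siControl. Without siPVT1 replicate 3 the median log2 fold change was −1.30 and 29 genes passed both thresholds as lower, and without siPVT1 replicate 1 the values were −1.02 and 22. The part of depth or mitochondrial share in this order was not tested. In siControl, replicate 2 was the lowest library for 40 of the 42 genes and for 50.9% of all genes tested.

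Among the 42 genes, those with the shortest transcripts had the smallest median change, a description with few genes in a class. The 7 genes with a canonical transcript under 1500 bases were at a median of −0.32 on the log2 scale, from −1.52 to 0.21. Of these, 2 passed both thresholds as lower. The 17, 11 and 7 genes of 1500 to 3000, 3000 to 5000 and 5000 or more bases had medians of −1.13, −1.11 and −1.46. Their ranges were −1.52 to 0.19, −2.19 to −0.48 and −2.12 to −0.83, and 12, 6 and 6 passed both thresholds. In the same classes the medians of all tested protein-coding genes were 0.08, −0.03, −0.03 and 0.05. Of these genes, 7.42%, 10.1%, 8.33% and 7.48% were lower by both thresholds. In 8 of the 42 genes GENCODE places snoRNA genes on the same strand, inside NCL, NOP56, NOP58, DKC1, WDR43, TSR1, PPAN and GNL3. Their median log2 fold change was −0.93 (from −1.49 to 0.19), and that of the other 34 was −1.13 (from −2.19 to 0.21). The 42 genes lie on 17 chromosomes, with 7 on chromosome 2, and RRS1 and BOP1 are on chromosome 8 with PVT1.

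A further 142 genes of the pathway were listed by hand and by step, with earlier results of these data known. Of these, 116 were lower and 4 higher at an adjusted p under 0.05, where the shares of all genes tested were 28.4% and 29.5%. By both thresholds 35 were lower and 1 higher, against 9.65% and 11.8% of all genes, and the median log2 fold change was −0.68. Without siPVT1 replicate 3 the count of 35 was 58 and the count of 4 was 7. In the processome and 40S step 42 of 45 were lower by the adjusted p, with a median of −0.83. NOL6 and DHX37, a scaffold protein and a helicase of the processome, had the lowest values, both −2.36 (standard errors 0.235 and 0.194). NOL6 had 3194, 3100 and 2945 in siControl and 408, 519 and 864 in siPVT1, with no overlap. IMP3, a component of the U3 snoRNP, was higher (log2 fold change 0.35, standard error 0.087, adjusted p = 0.00894). In 60S assembly 47 of 52 were lower by the adjusted p, with a median of −0.88. CCDC86 and URB2 were at −1.56 and −1.54 (standard errors 0.103 and 0.241), and EFL1, the GTPase of the last 60S step, was at 0.31 (standard error 0.123, adjusted p = 0.0587).

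The other steps had smaller medians. Of 15 further genes listed under RNA polymerase I transcription, 12 were lower by the adjusted p, with a median of −0.37. POLR1G and POLR1C, 2 other subunits, were at −1.76 and −1.06 (standard errors 0.26 and 0.104), and TAF1B, a promoter factor of RNA polymerase I, was higher at 0.29 (standard error 0.075, adjusted p = 0.011). Of 13 genes listed under snoRNPs, 5 were lower and 1 was higher by the adjusted p, with a median of −0.13. These 5 are to be read against the 28.4% of all genes that were lower. NOP9 (log2 fold change −0.34) was listed under RNA polymerase I and NOP53 (0.18) under snoRNPs, and both could be placed in other steps. NUFIP1 and SHQ1, which assemble box C/D and box H/ACA particles, were at −1.34 and −1.32 (standard errors 0.141 and 0.098), and PIH1D1, a subunit of the R2TP cochaperone, rose from 620, 576 and 643 to 1491, 1438 and 1531 normalized counts (log2 fold change 1.28, standard error 0.071, adjusted p = 4.17e-06). Of 17 genes of the RNA exosome and trimming enzymes, 10 were lower and 1 was higher by the adjusted p. Their median was −0.37, and by both thresholds 0 of the 17 were lower, against 9.65% of all genes. By both thresholds 2 of the 15 genes under RNA polymerase I were lower. Of the 13 under snoRNPs, 2 were lower and 1 was higher by that rule. The further genes lower by it were 14 of 45 in the processome step and 17 of 52 in 60S assembly. EXOSC6 and EXOSC2 were at −0.88 and −0.83 (standard errors 0.122 and 0.172), and C1D, an exosome cofactor, was higher at 0.68 (standard error 0.103, adjusted p = 0.00064).

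**Figure D5:**
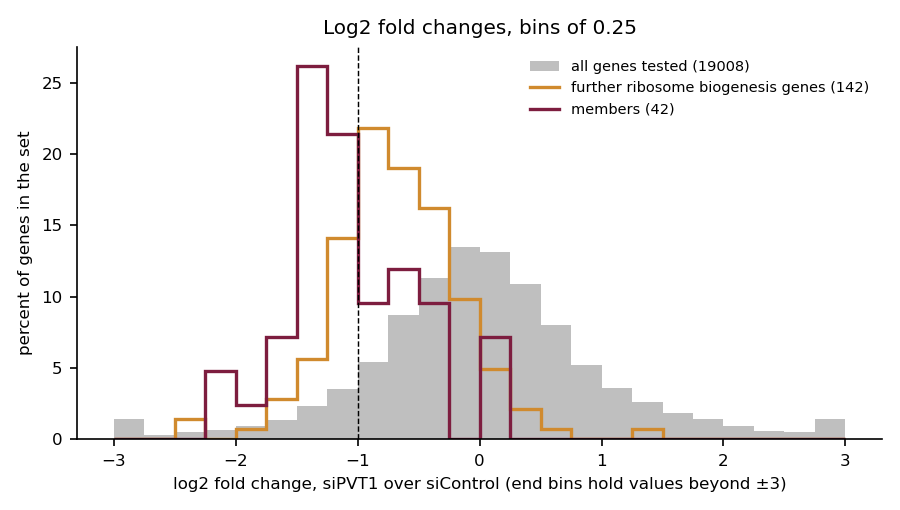
Percent of genes (y axis) by log2 fold change, siPVT1 over siControl, in bins of 0.25 (x axis), for all 19008 genes tested (grey), the 142 further ribosome biogenesis genes (orange) and the 42 genes (dark red). The end bins also hold values beyond ±3 and the dashed line marks −1; the medians were 0.001, −0.68 and −1.12.

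Scaling by the total count alone, in place of TMM normalization, moved the median of all genes tested by more than 0.1, to −0.148. With that scaling the median of the 42 genes was −1.27, and FBL, NOP10 and PPAN had log2 fold changes of 0.01, 0.06 and 0.04. With that scaling 39 of the 42 genes were again lower by the adjusted p. Such a change of scaling shifts all genes by nearly the same amount, so positions relative to their median are kept by construction. Of the 4 further genes called higher, PIH1D1 and C1D were called with that scaling at 1.13 and 0.53, and IMP3 and TAF1B were not, at 0.20 and 0.14 (adjusted p = 0.0711 and 0.14).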

How the data were processed

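RNA of 6 SK-OV3 libraries was sequenced by the authors as single-end reads, which were aligned with STAR 2.7.3a against GENCODE v35 transcripts of GRCh38.p13 and quantified with Salmon 0.14.1, versions per the submitters' processing notes. The values the authors deposited are estimated counts per gene symbol, rounded to whole numbers, without normalization or filter, and the strand setting is not given in the sources used here. Reads that match several transcripts are shared out by an estimate, so paralogs, pseudogenes and overlapping genes are uncertain.

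Groups and replicate numbers came from the sample labels. Counts were compared with edgeR 4.0.16 (R 4.3.3), TMM normalization and the quasi-likelihood F test with the siRNA as the only term, in genes that reached 5 normalized counts in 3 or more libraries. Normalized counts are counts divided by the effective library size and multiplied by the mean of these sizes. A standard error is the size of the log2 fold change over the root of its F value. Calls used an adjusted p under 0.05 (Benjamini-Hochberg, all genes tested), alone or together with a log2 fold change of 1 or more in size. DESeq2 1.42.0 was an alternative, and both tools were tested on simulated data. Each gene varied on its own in the simulation, so a library order shared by many genes was not simulated. Coordinates, canonical transcripts and snoRNA genes are from GENCODE v44 on GRCh38, and promoters from RefSeq on GRCh38.p14.

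The members and lists were chosen with earlier results of these data known, and the list of 142 further genes was written by hand, with 138 symbols found as written and 4 through RefSeq synonyms. The genes named with library values are the 3 lowest and the highest of each step, and of the further genes the 2 lowest and the highest of each step are named. FBL, GAR1, NHP2, NPM1, NOC3L, the PeBoW genes, the ratios, the length classes and the printed promoters were chosen after their values were seen. The promoter letters and MYC were not in the initial plan, and the promoters were read after the genes had been seen to be lower. Alternatives were 2 other scalings, DESeq2, 2 other filters, the replicate block, each library left out and, for counts by both thresholds, a test of the null of a 2-fold change.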

Additional observations from a re-analysis of the deposited data

How the results depend on the processing

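The count of members lower by both thresholds, 26, lay between 22 and 29 with each library left out and was 29 with scaling by the total count and 9 when the null was a 2-fold change (RRP12, UTP15, NOC3L, UTP20, PES1, POLR1B, NOP2, POLR1A and BOP1). That null gave 1976 genes in place of 4082 over all genes and 13 in place of 35 for the further genes, a stricter call by construction. Members higher by the adjusted p alone were 1 with the replicate block (NOP10) and between 0 and 2 with each library left out, the 2 being FBL and PPAN without siPVT1 replicate 1. Further genes lower by both thresholds were 58 with scaling by the total count and between 28 and 58 with each library left out, and those higher by the adjusted p alone were 2 with that scaling and between 3 and 7. Scaling by the total count lowered all log2 fold changes by nearly the same amount. The median of all genes tested went from 0.001 to −0.148, so genes just short of −1 passed the fold threshold. The cause of the other changes was not tested. The median of the members ranged from −1.30 to −1.02 with each library left out, and no gene of the 42 turned its direction under any of the 12 settings run for single genes. In 504 gene and setting pairs the call by the adjusted p was kept in 492, lost in 9 and gained in 3. Same-numbered libraries did not deviate together (correlations across genes of −0.037, 0.029 and 0.002), so the labels' numbers are not taken as pairs. The replicate block changed no call of the 42 genes but that of NOP10, and with it 39 were lower by the adjusted p and 26 by both thresholds. With 3 libraries a group, standard errors ranged from 0.062 to 0.238 among the 42 genes. In edgeR the spread of a gene is estimated in part from other genes, so a standard error does not rest on that gene's own spread alone.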
